A study of Mus musculus with 12 samples.

Results

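Antiviral effector genes are the genes whose products block the steps of viral infection and which interferon switches on. The set described here is a list of 49 mouse gene symbols, looked up in a table of read counts for 24619 genes. Of the 49 symbols, 47 were found, and 46 had enough reads to be tested among 14400 genes. Mx1 and Mx2 were not matched to a row and were not analysed here, and Cmpk2 was too low to test. The list was proposed with results of these data known. The difference between the TGF_KD_CM and TGF_VEC_CM libraries is therefore taken as having chosen the genes, and it is given below as a description with no test.

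The libraries hold messenger RNA of mouse cardiac fibroblasts, which make the matrix of the heart and which the protocol calls primary. All cells were starved for 12 h and then kept for 24 h in conditioned medium (CM), which is medium taken from adipocytes infected with a lentivirus. The TGF_KD_CM cells received TGF-beta1, a cytokine that activates fibroblasts, and medium of adipocytes with a lentivirus that inhibits the human microRNA hsa-miR-548ay. The TGF_VEC_CM cells received TGF-beta1 and medium of adipocytes with the vector lentivirus. The OE_CM cells received medium of adipocytes overexpressing hsa-miR-548ay, without TGF-beta1. The VEC_CM cells received vector medium without TGF-beta1. Each group has 3 libraries, and nothing in the labels says whether they came from separate cultures, so p-values measure the spread between libraries, which may be technical. Groups follow the sample titles: in the treatment labels of OE_CM and TGF_KD_CM, replicates 2 and 3 carry hsa-miR-549ay and hsa-miR-550ay in place of hsa-miR-548ay. The study describes the groups with and without TGF-beta1 as separate parts, so TGF-beta1 and the part cannot be told apart between TGF_VEC_CM and VEC_CM. In every group the adipocytes carried a lentivirus, and medium of uninfected adipocytes was not analysed here.

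Interferons are secreted proteins that bind receptors on neighbouring cells and activate the kinases JAK1 and TYK2. Their signal leads to a complex of transcription factors that holds IRF9 and binds a promoter sequence called the interferon-stimulated response element (ISRE). The genes switched on in this way sense viral nucleic acid, degrade it, block entry or release of particles, and modify host and viral proteins with the ubiquitin-like protein ISG15. Fibroblasts are a classical cell type for measuring this response, and many of the same genes keep a low level of expression in cells that have met no virus.

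The 12 libraries held between 33379207 and 37226153 counted reads each, so that 3 reads, the limit used for detection, correspond to at most 0.0939 CPM (reads of a gene scaled to the size of its library). Levels are given as CPM scaled between libraries, and as FPKM, which divides by gene length, where genes are compared with each other. Among the fibroblast markers, Col1a1, Col1a2, Vim, Fn1 and Pdgfra were well expressed, while other defining markers were low: Dcn averaged 0.135 CPM in TGF_KD_CM and 0.137 CPM in VEC_CM, Lum had a highest value of 0.0282 CPM and Thy1 one of 0.538 CPM. Cspg4, a pericyte marker, lay between 554 and 878 CPM. In OE_CM and VEC_CM it made up nearly all of the summed level of 6 smooth muscle and pericyte markers. The others of that list, Myh11, Acta2, Cnn1, Rgs5 and Kcnj8, were thus low beside it in these groups. The summed level of 11 leukocyte markers was 23.9 to 26.5 CPM in TGF_KD_CM, 30.1 to 32.9 CPM in TGF_VEC_CM, 17.3 to 30.2 CPM in OE_CM and 37.1 to 39.8 CPM in VEC_CM. Most of it was Lyz2, a macrophage gene, while Cd3e, which marks T cells, had 0 reads in TGF_KD_CM, OE_CM and VEC_CM. In OE_CM the highest of these sums, 30.2 CPM, belonged to replicate 1, against 20.9 and 17.3 CPM in replicates 2 and 3. In bulk RNA, fewer cells of a type and less RNA per cell cannot be told apart.

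The stretches of promoter below hold matches to the ISRE and are shown for genes described below: 5 with large differences between TGF_KD_CM and TGF_VEC_CM (Isg15, Ifit1, Ifit3, Ifit3b and Ddx60), the pair Apol9a and Apol9b, and Bst2 and Rsad2, whose levels are given in every library. Each is 60 bases of the RefSeq promoter table (build GRCm38.p6), 5′ to 3′ on the strand of the gene. Capitals mark the ISRE core, searched as TTTCNNTTTC and, on the other strand, GAAANNGAAA. Overlapping matches form 1 longer run of capitals.
Isg15, chr4:156200850-156200909, minus strand: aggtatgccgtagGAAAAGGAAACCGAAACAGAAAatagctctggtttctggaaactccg
Ifit1, chr19:34640779-34640838, plus strand: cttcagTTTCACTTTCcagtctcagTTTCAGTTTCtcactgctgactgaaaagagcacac
Ifit3, chr19:34583382-34583441, plus strand: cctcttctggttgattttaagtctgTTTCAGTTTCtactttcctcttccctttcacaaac
Ifit3b, chr19:34607778-34607837, plus strand: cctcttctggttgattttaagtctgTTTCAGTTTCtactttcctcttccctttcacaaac
Ddx60, chr8:61928027-61928086, plus strand: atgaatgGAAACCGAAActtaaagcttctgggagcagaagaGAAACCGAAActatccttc
Apol9a, chr15:77411099-77411158, minus strand: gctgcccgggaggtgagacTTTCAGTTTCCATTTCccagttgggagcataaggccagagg
Apol9b, chr15:77729016-77729075, plus strand: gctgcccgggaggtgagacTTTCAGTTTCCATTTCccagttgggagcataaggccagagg
Bst2, chr8:71537562-71537621, minus strand: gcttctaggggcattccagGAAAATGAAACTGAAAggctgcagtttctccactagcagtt
Rsad2, chr12:26456538-26456597, minus strand: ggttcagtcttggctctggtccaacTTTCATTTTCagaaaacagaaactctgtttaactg
The stretches of Apol9a and Apol9b were identical at 60 of 60 bases, and so were those of Ifit3 and Ifit3b. Isg15 held 3 overlapping cores, and Ifit1 and Ddx60 held 2 separate ones each in the bases shown.

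Windows of 250 bases before the start and 50 after it were on hand for 38 of the 49 listed genes. An ISRE core was found in 14 of them (36.8%), against 936 of 27025 mouse genes with a window (3.46%). The core of the gamma-activated sequence was searched as TTCNNNGAA, which reads the same on both strands. It was found in 4 of 38 (10.5%), namely Bst2, Ifit2, Isg20 and Samhd1, against 8.13% of all genes, and in Bst2 it overlaps the ISRE core by 3 bases. A match is a run of letters and not a measured binding site, and windows without these letters say nothing of the binding of a factor.

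**Figure D1:**
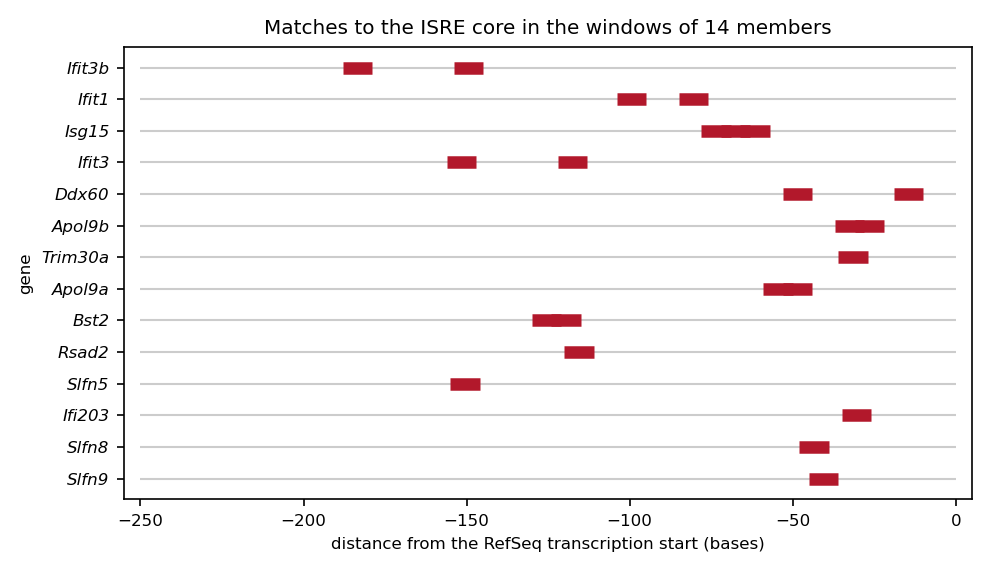
Matches to the ISRE core in the promoter windows of 14 antiviral genes. Each row is a gene, ordered from the largest (top) to the smallest log2 fold change of TGF_KD_CM over TGF_VEC_CM, the horizontal axis is the distance from the RefSeq transcription start in bases, and each bar is 1 match; where a gene has several windows 1 is drawn. Isg15 shows 3 overlapping matches, and the matches of Ifit3 and Ifit3b have the same spacing.

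The antiviral genes were high in TGF_KD_CM cells and low to moderate in TGF_VEC_CM, OE_CM and VEC_CM cells. The summed level of the 47 genes was 4300.3 to 4532 CPM in TGF_KD_CM libraries, against 1510.2 to 1551 CPM in TGF_VEC_CM libraries, a ratio of means of 2.89. It was 1139 to 1163 CPM in OE_CM libraries, against 1441 to 1461 CPM in VEC_CM libraries, a ratio of 0.791. Between TGF_VEC_CM and VEC_CM the ratio was 1.05. Per length, the median gene stood at 16.7 FPKM in TGF_KD_CM, 3.24 FPKM in TGF_VEC_CM, 2.06 FPKM in OE_CM and 2.32 FPKM in VEC_CM. Ifitm3 had the highest FPKM of the 46 in every group, and Ddx60 the lowest in every group but TGF_KD_CM, where Epsti1 was lowest. In TGF_KD_CM 1 of the 46 genes averaged under 1 CPM, compared with 7 in TGF_VEC_CM, 12 in OE_CM and 8 in VEC_CM.

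**Figure D2:**
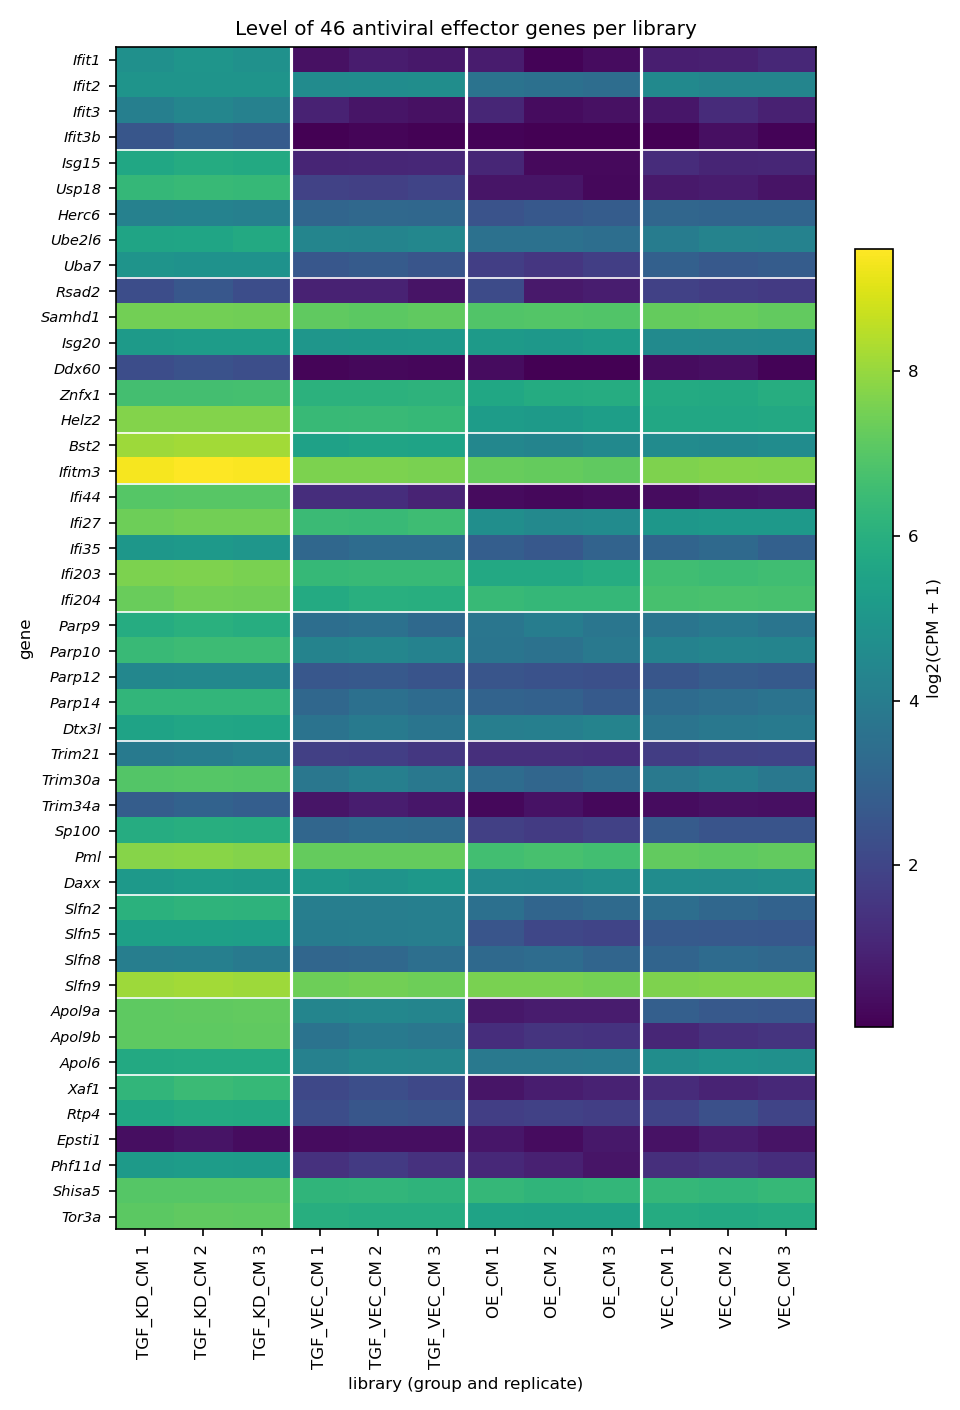
Level of each of the 46 tested antiviral genes (rows, grouped by role) in each of the 12 libraries (columns), as log2(CPM + 1); white lines separate groups of libraries and roles. The 3 TGF_KD_CM columns are brightest for most rows, with summed levels of 4300.3 to 4532 CPM. Rows such as Daxx, Isg20, Ifit2 and Samhd1 differ little between the TGF_KD_CM and TGF_VEC_CM columns.

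OE_CM against VEC_CM asks what medium of adipocytes overexpressing the microRNA does to these genes without TGF-beta1. It shares no library with the comparison taken to have chosen them. Which results were known when the list was proposed is not given, so these libraries may have informed it too. Most antiviral genes were lower in OE_CM cells. Of the 46 tested, 29 fell, 2 rose (Isg20 and Dtx3l) and 15 missed the threshold (edgeR quasi-likelihood, Benjamini-Hochberg adjusted p under 0.05 over all 14400 genes). Over all genes tested, 25.7% fell and 28.4% rose, so changes in either direction were common (54.0%). Of the 46, Ddx60, Ifi44 and Ifit3b had enough reads to be tested only through the libraries with TGF-beta1, being highest in TGF_KD_CM. None of these 3 passed in the reported fit. Among the other 43, a division made after the data were seen, the median log2 fold change was -0.51, against -0.01 over all genes, and 37 of 43 values were negative. The 3 OE_CM libraries lay below all 3 VEC_CM libraries for 26 of the 43 and above them for 2, compared with 27.9% and 30.4% of all genes. By the fitted fold, whether or not they passed the test, 5 of the 43 were at least 2-fold lower, against 6.10% of all genes. With upper-quartile scaling, 34 of the 46 antiviral genes fell, Ifi44 and Ifit3b among them, and 2 rose. The split over all genes was then 5059 lower and 2798 higher, compared with 3695 lower and 4083 higher in the reported fit. Some marker genes of other cell types also differed. Of 8 leukocyte markers tested, 2 (Cd68 and Lyz2) fell and none rose at that threshold. That is near the share of all genes that fell (25.7%). However, 7 of the 8 log2 fold changes were negative. The median of the 8 was -0.69, against -0.01 over all genes. The summed level of 7 adipocyte markers was 97.5 to 102 CPM in OE_CM, against 265 to 279 CPM in VEC_CM; Fabp4, which made up most of it, fell and Cidec rose, while Adipoq and Plin1 stayed under 1 CPM on average and Lep had 0 reads in both groups. That of 6 cardiomyocyte markers was 163 to 167 CPM in OE_CM, against 70.0 to 75.2 CPM in VEC_CM, nearly all of it Tnnt2, which rose, with 0 reads of Actc1. That of 6 smooth muscle and pericyte markers was 875 to 878 CPM in OE_CM, against 555 to 577 CPM in VEC_CM, nearly all of it Cspg4, which rose. The part of these cell types in the antiviral result was not tested. Without OE_CM replicate 1, the one of the 3 with the highest leukocyte sum, 32 antiviral genes fell and 2 rose. Ddx60 and Ifit3b, tested only through the libraries with TGF-beta1, are among those 32.

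TGF_VEC_CM against VEC_CM asks what TGF-beta1 does in the presence of vector medium. Its TGF_VEC_CM libraries also took part in the comparison taken to have chosen the genes, and it shares the VEC_CM libraries with the comparison above. Here the antiviral genes split. Of 46, 20 rose, 8 fell and 18 missed the threshold, against 28.9% higher and 29.4% lower over all genes. Ddx60 and Ifit3b were again tested only through other libraries, those of TGF_KD_CM, and did not pass. Among the other 44, the median log2 fold change was 0.09, against 0.00 over all genes. TGF_VEC_CM libraries lay above all VEC_CM libraries for 19 of the 44 and below them for 11, compared with 31.2% and 31.5% of all genes. By the fitted fold, 7 of the 44 were at least 2-fold higher (7.93% of all genes) and 1, Rsad2, which did not pass the test, at least 2-fold lower (2.26% of all genes).

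TGF_KD_CM against TGF_VEC_CM asks what inhibiting the microRNA in the adipocytes does to TGF-beta1-treated fibroblasts. As this contrast is taken to have chosen the genes, nothing is read from its counts. All 46 genes had a positive log2 fold change, with a median of 2.07, which is 4.19-fold, against 0.00 over all genes. The values ran between 0.16 (Daxx) and 6.65 (Ifi44): 35 genes were at least 2-fold higher (1.81% of all genes), 24 at least 4-fold, 14 at least 8-fold and 9 at least 16-fold. Of all 14400 genes tested, 76 were at least 4-fold higher, 39 at least 8-fold and 16 at least 16-fold. Set against VEC_CM in place of TGF_VEC_CM, the TGF_KD_CM cells had a median log2 fold change of 2.24, with 34 genes at least 2-fold higher (5.58% of all genes). The part of cell types in these differences was not tested. The summed level of 9 fibroblast markers was higher in TGF_KD_CM (11283.1 to 11628.3 CPM) than in TGF_VEC_CM (10255.7 to 10390.8 CPM). The leukocyte sums were lower in TGF_KD_CM than in TGF_VEC_CM, as given above. So were the sums of the adipocyte markers (152 to 163 CPM in TGF_KD_CM, against 186 to 198 CPM in TGF_VEC_CM), of the cardiomyocyte markers (97.2 to 104 CPM in TGF_KD_CM, against 105 to 116 CPM in TGF_VEC_CM) and of the smooth muscle and pericyte markers (600.0 to 615 CPM in TGF_KD_CM, against 784 to 807 CPM in TGF_VEC_CM).

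**Figure D3:**
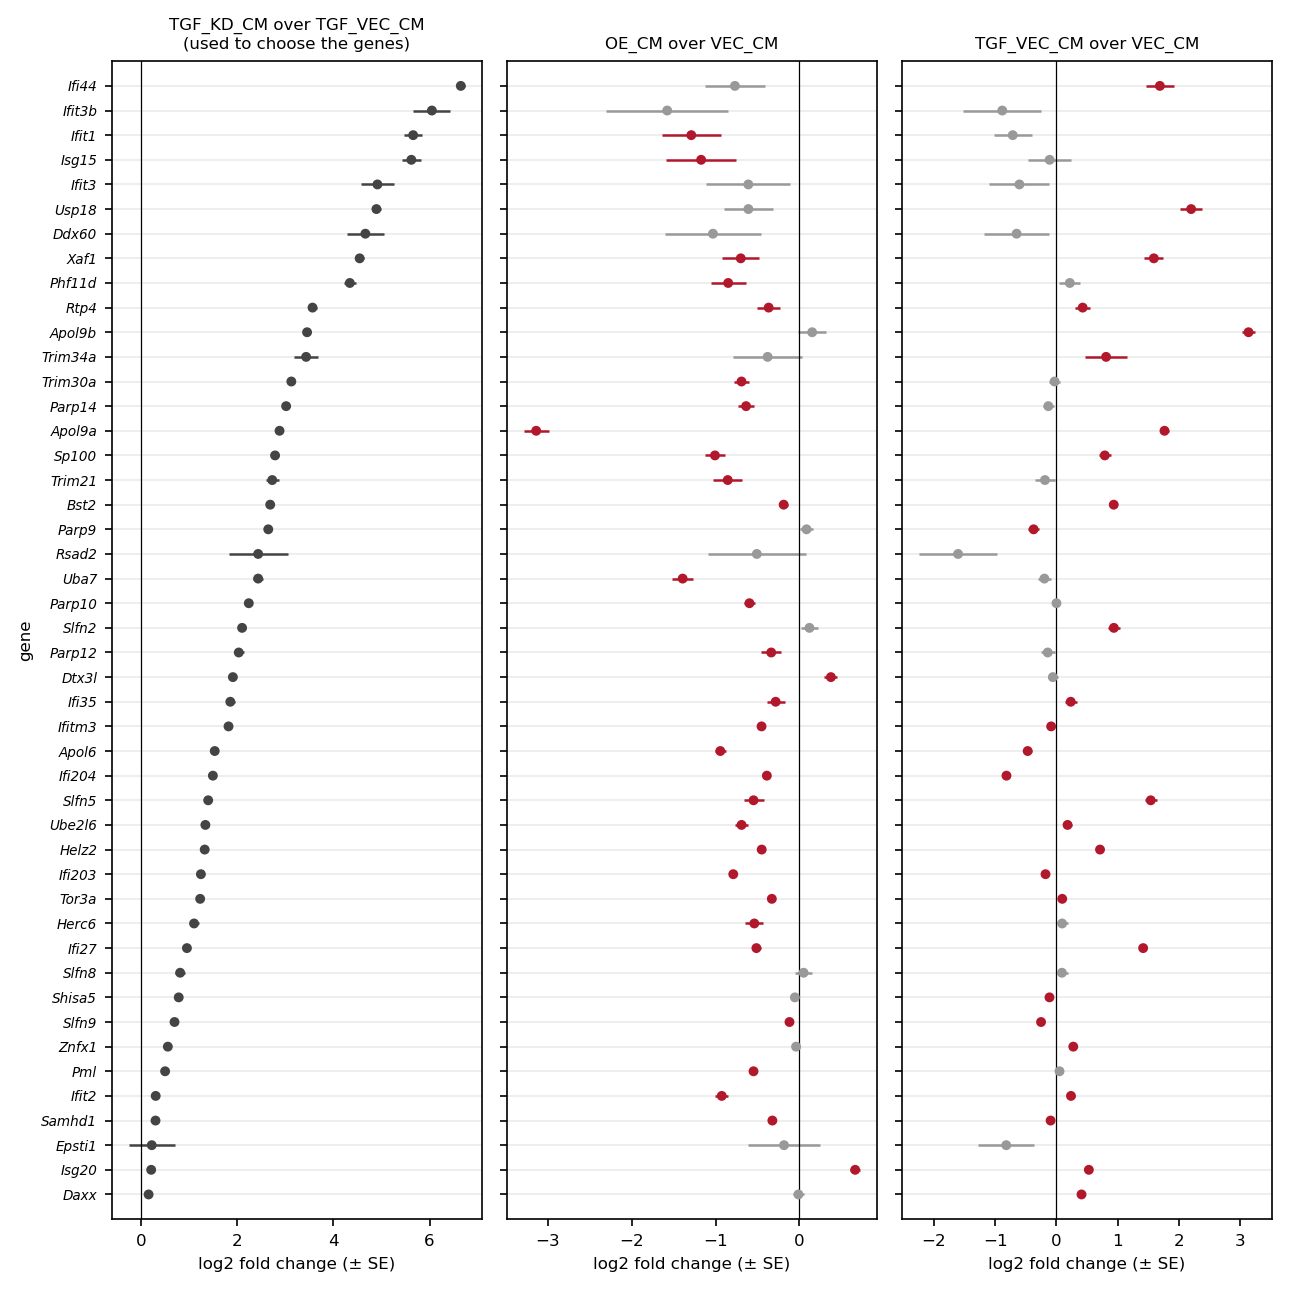
Log2 fold change with its standard error for the 46 antiviral genes in the 3 comparisons, ordered by TGF_KD_CM over TGF_VEC_CM. In the middle and right panels red points passed the test and grey points did not. The left panel carries no test because its comparison is taken to have chosen the genes. In the OE_CM panel most points lie left of 0, 29 of them red, and in the TGF_VEC_CM panel points lie on both sides.

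The IFIT proteins bind viral RNA that lacks the marks of host messenger RNA and keep it from being translated. Their 4 genes lie side by side on chromosome 19, separated by gaps of 6.58 to 27.5 kb. Ifit1 had 26.6, 29.8 and 27.1 CPM in TGF_KD_CM libraries, against 0.365, 0.703 and 0.570 CPM in TGF_VEC_CM libraries. The groups did not overlap, and the log2 fold change was 5.66 ± 0.19 (SE). In the other pair of groups Ifit1 had 0.705, 0.0897 and 0.282 CPM in OE_CM libraries, against 0.762, 0.819 and 1.12 CPM in VEC_CM libraries, with every OE_CM library below every VEC_CM library (log2 fold change -1.29 ± 0.35 (SE), adjusted p = 0.0023).

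Ifit3 had 16.4, 19.8 and 17.1 CPM in TGF_KD_CM libraries, against 0.899, 0.487 and 0.380 CPM in TGF_VEC_CM libraries, a log2 fold change of 4.92 ± 0.34 (SE). Between OE_CM and VEC_CM it did not pass the test (-0.61 ± 0.50 (SE), adjusted p = 0.34), and OE_CM replicate 1, at 1.07 CPM, stood above replicates 2 and 3, at 0.269 and 0.375 CPM. Without that replicate Ifit3 passed (-1.47, adjusted p = 0.0013). Its near copy Ifit3b had 182, 235 and 212 reads in TGF_KD_CM libraries, against 1, 5 and 3 reads in TGF_VEC_CM libraries, so that its log2 fold change of 6.05 ± 0.38 (SE) rests on few reads on one side. It did not pass in OE_CM (-1.58 ± 0.73 (SE), adjusted p = 0.061), but passed without OE_CM replicate 1 (-2.22, adjusted p = 0.042) or without VEC_CM replicate 1 (-1.98, adjusted p = 0.018) or 3 (-1.87, adjusted p = 0.032). Ifit3b had enough reads to be tested in OE_CM only through the libraries with TGF-beta1, so no fall is read from these values. Ifit3 shares 51.2% of its 50-base stretches of transcript with Ifit3b, and Ifit3b shares 44.5% with Ifit3, so how reads were split between the pair is uncertain.

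Ifit2 differed least of its cluster between the TGF-beta1 groups. It had 29.0, 29.3 and 29.5 CPM in TGF_KD_CM libraries, against 23.2, 23.7 and 24.1 CPM in TGF_VEC_CM libraries, a log2 fold change of only 0.31. Between OE_CM and VEC_CM its fall was clear, with 11.4, 10.6 and 9.64 CPM in OE_CM libraries, against 22.2, 19.0 and 19.0 CPM in VEC_CM libraries (log2 fold change -0.93 ± 0.08 (SE), adjusted p = 4.1e-17). Of the 4 IFIT genes, 2 fell in OE_CM (Ifit1 and Ifit2) and none rose, against 25.7% and 28.4% over all genes. In TGF_VEC_CM against VEC_CM Ifit2 rose by a log2 fold change of 0.24, while the values of Ifit1 (-0.71 ± 0.31 (SE), adjusted p = 0.052), Ifit3 and Ifit3b were negative and did not pass. That of Ifit1 passed without TGF_VEC_CM replicate 2 (-0.92, adjusted p = 0.034), OE_CM replicate 1 (-0.70, adjusted p = 0.016) or OE_CM replicate 2 (-0.71, adjusted p = 0.016).

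ISG15 is attached to other proteins by the activating enzyme UBA7, the conjugating enzyme UBE2L6 and, in the mouse, the ligase HERC6, and USP18 removes it and also damps the interferon receptor. Isg15 (GRCm38, chromosome 4, 156199424 to 156200818) had 49.0, 56.4 and 54.2 CPM in TGF_KD_CM libraries, against 1.04, 1.05 and 1.14 CPM in TGF_VEC_CM libraries. The groups were far apart, with a log2 fold change of 5.62 ± 0.20 (SE). In OE_CM libraries Isg15 had 1.07, 0.209 and 0.219 CPM, against 1.36, 1.04 and 1.09 CPM in VEC_CM libraries. OE_CM replicate 1 was at the level of the VEC_CM libraries and replicates 2 and 3 were well below them, so the groups overlapped. The log2 fold change was -1.17 ± 0.42 (SE), adjusted p = 0.032, and the call was lost, with adjusted p of 0.052 to 0.11, when OE_CM replicate 3, any 1 VEC_CM library or any 1 TGF_VEC_CM library was left out, and with the replicate block.

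Usp18 (chromosome 6, 121245906 to 121270917) had 79.9, 83.6 and 80.7 CPM in TGF_KD_CM, 2.75, 2.52 and 2.93 CPM in TGF_VEC_CM, 0.480, 0.478 and 0.188 CPM in OE_CM and 0.626, 0.710 and 0.438 CPM in VEC_CM. It was thus graded across the groups: the TGF_VEC_CM libraries lay above all VEC_CM libraries (2.20 ± 0.18 (SE), adjusted p = 8.6e-17), and the TGF_KD_CM libraries lay above both (log2 fold change over TGF_VEC_CM 4.89 ± 0.09 (SE)). The difference between OE_CM and VEC_CM did not pass (-0.61 ± 0.29 (SE), adjusted p = 0.073), but passed without OE_CM replicate 1 (-0.81, adjusted p = 0.045) or VEC_CM replicate 3 (-0.78, adjusted p = 0.032).

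Uba7 fell most clearly in this group, with 2.43, 1.88 and 2.503 CPM in OE_CM libraries, against 6.59, 5.46 and 5.85 CPM in VEC_CM libraries (log2 fold change -1.39 ± 0.13 (SE), adjusted p = 6.0e-15). No OE_CM library came near a VEC_CM library. Uba7 had 29.1, 28.0 and 27.5 CPM in TGF_KD_CM libraries, against 5.11, 5.76 and 4.75 CPM in TGF_VEC_CM libraries. Ube2l6 and Herc6 also fell in OE_CM, with log2 fold changes of -0.69 and -0.54. Thus 4 of the 5 genes of ISG15 conjugation fell and none rose, against 25.7% and 28.4% over all genes. In TGF_VEC_CM against VEC_CM 2 of the 5 rose (28.9% over all genes), Usp18 and, by a log2 fold change of 0.18, Ube2l6. That smaller rise was lost without VEC_CM replicate 1 (0.11, adjusted p = 0.23) or without TGF_VEC_CM replicate 3 (0.16, adjusted p = 0.09).

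Enzymes that act on nucleotides or nucleic acids behaved less uniformly. RSAD2 (viperin) makes a nucleotide that stops viral RNA synthesis. Rsad2 had 3.85, 4.99 and 3.84 CPM in TGF_KD_CM libraries, against 0.927, 0.947 and 0.461 CPM in TGF_VEC_CM libraries, a log2 fold change of 2.44 ± 0.61 (SE). In OE_CM libraries it had 3.58, 0.628 and 0.720 CPM, against 2.67, 2.35 and 2.11 CPM in VEC_CM libraries. OE_CM replicate 1 was above all VEC_CM libraries and replicates 2 and 3 were below them, and the difference did not pass (-0.51 ± 0.58 (SE), adjusted p = 0.5). Without OE_CM replicate 1 Rsad2 passed (-1.82, adjusted p = 3.1e-07), and without OE_CM replicate 2 or 3 the log2 fold change was nearer to 0 (-0.12, adjusted p = 0.88, and -0.16, adjusted p = 0.85). In TGF_VEC_CM against VEC_CM it did not pass (-1.61 ± 0.64 (SE), adjusted p = 0.059), although every TGF_VEC_CM library lay below every VEC_CM library. Rsad2 passed there when any 1 OE_CM library was left out, with adjusted p of 7.0e-08 to 0.046. It also passed by DESeq2, on both log2 FPKM scales, and with only the 6 libraries of the 2 groups. Replicate 1 is also the OE_CM library with the highest leukocyte sum, and the part of leukocytes in its Rsad2 level was not tested. Cmpk2, the neighbour of Rsad2 at a distance of 12.7 kb on chromosome 12, supplies nucleotides to the same reaction. Its reads numbered 2, 4 and 5 in TGF_KD_CM, 1, 1 and 2 in TGF_VEC_CM, 7, 1 and 4 in OE_CM and 8, 5 and 9 in VEC_CM.

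SAMHD1 depletes the nucleotides that retroviruses need. Samhd1 had 174, 177 and 171 CPM in TGF_KD_CM libraries, against 144, 136 and 142 CPM in TGF_VEC_CM libraries, a log2 fold change of 0.30, and 120.2, 121 and 119 CPM in OE_CM libraries, against 149, 155 and 147 CPM in VEC_CM libraries. The OE_CM libraries lay below the VEC_CM libraries (log2 fold change -0.32 ± 0.03 (SE), adjusted p = 2.0e-14). Its small fall in TGF_VEC_CM against VEC_CM (-0.09 ± 0.03 (SE), adjusted p = 0.0058) was lost without VEC_CM replicate 2 (-0.07, adjusted p = 0.059) or without TGF_VEC_CM replicate 2 (-0.06, adjusted p = 0.13).

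ISG20 is an exonuclease that degrades single-stranded RNA. Isg20 was the exception in OE_CM, with 35.3, 32.4 and 36.2 CPM in OE_CM libraries, against 22.2, 21.6 and 21.7 CPM in VEC_CM libraries (log2 fold change 0.66 ± 0.06 (SE), adjusted p = 6.7e-16). All OE_CM libraries were higher than all VEC_CM libraries. It had 35.6, 37.0 and 37.1 CPM in TGF_KD_CM libraries, against 30.5, 31.8 and 32.4 CPM in TGF_VEC_CM libraries, so the TGF_KD_CM libraries were above the TGF_VEC_CM libraries by a log2 fold change of only 0.21, and Isg20 rose in TGF_VEC_CM against VEC_CM (0.53 ± 0.06 (SE), adjusted p = 3.2e-12).

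DDX60 and ZNFX1 are helicases that help sense viral RNA. Ddx60 reads numbered 141, 160 and 146 in TGF_KD_CM, 4, 7 and 6 in TGF_VEC_CM, 10, 1 and 1 in OE_CM and 10, 13 and 4 in VEC_CM. Ddx60 was thus near the detection limit outside TGF_KD_CM, and neither tested comparison passed. In OE_CM its log2 fold change of -1.03 ± 0.58 (SE), adjusted p = 0.13, passed without OE_CM replicate 1 (-2.88, adjusted p = 0.0025) or VEC_CM replicate 3 (-1.37, adjusted p = 0.044) and was smaller without OE_CM replicate 2 (-0.59, adjusted p = 0.44) or 3 (-0.61, adjusted p = 0.41) or VEC_CM replicate 2 (-0.67, adjusted p = 0.42). Ddx60 had enough reads to be tested in OE_CM only through the libraries with TGF-beta1, so no fall is read from these values. Znfx1 rose in TGF_VEC_CM against VEC_CM (log2 fold change 0.28) and had a log2 fold change of -0.04 in OE_CM, which did not pass. Helz2, a helicase and transcriptional coactivator, averaged 209.6 ± 2.32 CPM in TGF_KD_CM, 83.6 ± 2.06 CPM in TGF_VEC_CM, 37.3 ± 1.77 CPM in OE_CM and 51.0 ± 0.525 CPM in VEC_CM (SD, n = 3 each). It fell in OE_CM (-0.45) and rose in TGF_VEC_CM (0.71), both on the log2 scale against VEC_CM. Of the 6 tested genes of this kind, 1 rose and 2 fell in OE_CM (28.4% and 25.7% over all genes). In TGF_VEC_CM 3 rose and 1 fell (28.9% and 29.4% over all genes).

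Bst2 and Ifitm3 encode barriers at the cell membrane: BST2 (tetherin) holds budding particles on the cell surface, and IFITM3 blocks the fusion of entering particles. Ifitm3 (chromosome 7, 141009590 to 141010744) was the most abundant antiviral transcript, at 1064 ± 46.1 FPKM in TGF_KD_CM, 308 ± 3.30 FPKM in TGF_VEC_CM, 219.7 ± 7.82 FPKM in OE_CM and 317 ± 7.97 FPKM in VEC_CM (SD, n = 3 each). By library it had 645, 709.8 and 689 CPM in TGF_KD_CM libraries, against 194, 193 and 191 CPM in TGF_VEC_CM libraries, a log2 fold change of 1.82 ± 0.03 (SE). It had 155, 149 and 144 CPM in OE_CM libraries, against 199, 210.3 and 205 CPM in VEC_CM libraries, and the 2 groups did not overlap (log2 fold change -0.45 ± 0.03 (SE), adjusted p = 2.1e-19). The fall in TGF_VEC_CM against VEC_CM was small (-0.09 ± 0.03 (SE), adjusted p = 0.011) and did not pass without VEC_CM replicate 2 (-0.07, adjusted p = 0.076) or 3 (-0.07, adjusted p = 0.067), or without TGF_VEC_CM replicate 2 (-0.07, adjusted p = 0.055) or 3 (-0.06, adjusted p = 0.10).

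Bst2 (chromosome 8, 71534255 to 71537472) had 275, 289 and 288 CPM in TGF_KD_CM libraries, against 42.3, 45.7 and 44.2 CPM in TGF_VEC_CM libraries, a log2 fold change of 2.69 ± 0.04 (SE). It had 20.1, 18.4 and 22.2 CPM in OE_CM libraries, against 23.4, 21.8 and 23.9 CPM in VEC_CM libraries. These groups overlapped, and the call of the log2 fold change (-0.19 ± 0.05 (SE), adjusted p = 0.0023) was lost without OE_CM replicate 2 (-0.12, adjusted p = 0.067). The TGF_VEC_CM libraries lay well above the VEC_CM libraries (log2 fold change 0.94 ± 0.05 (SE), adjusted p = 3.8e-26).

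**Figure D4:**
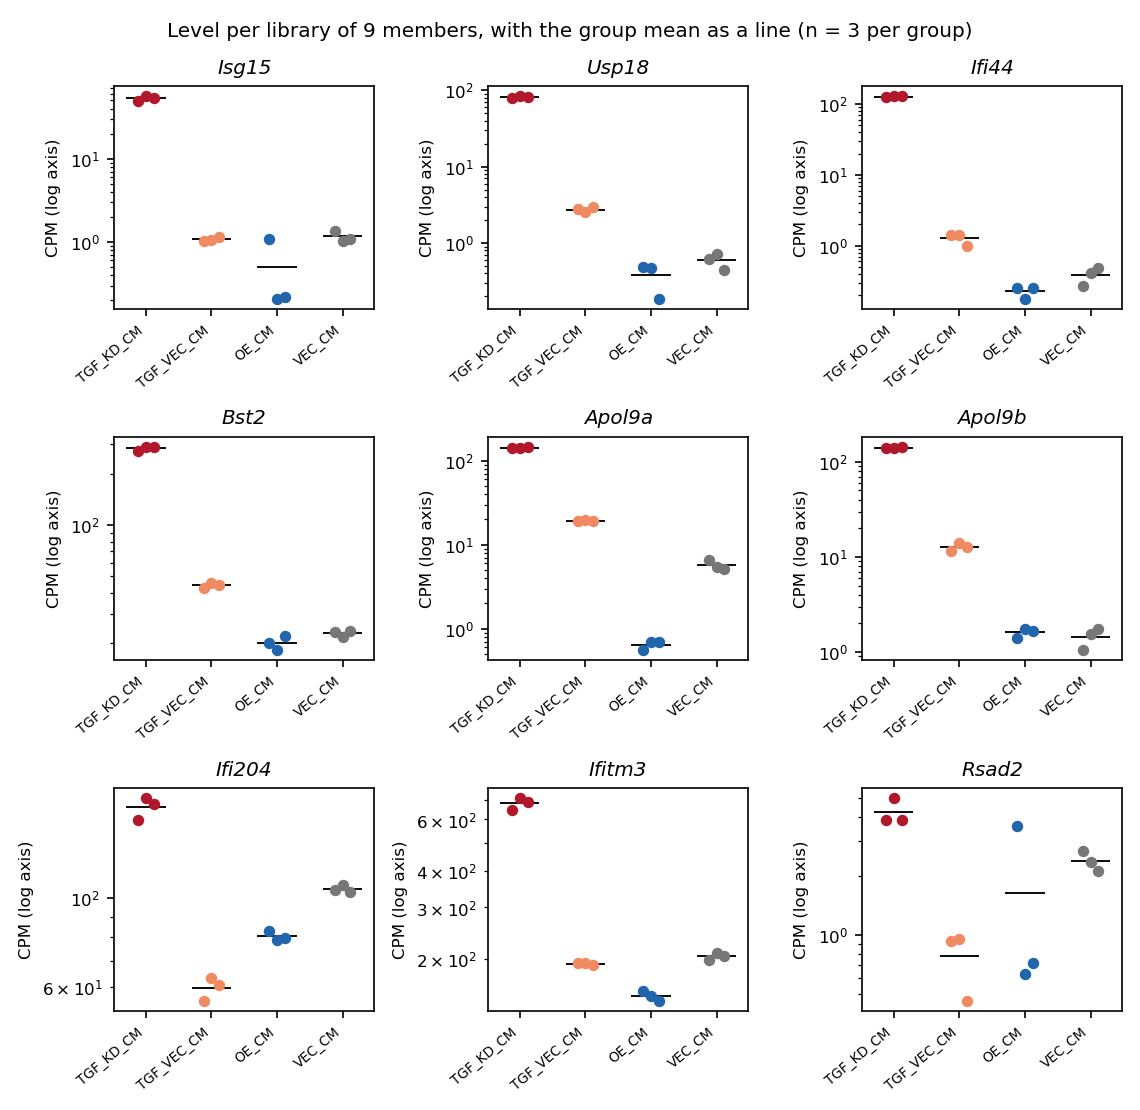
Level of 9 antiviral genes in every library, on a log axis of CPM, with the mean of each group as a line (n = 3 libraries per group). TGF_KD_CM libraries are highest in each panel; OE_CM replicate 1 stands above replicates 2 and 3 for Isg15 and Rsad2, and Apol9a but not Apol9b is lower in OE_CM than in VEC_CM.

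Ifi44, whose product binds GTP and limits viral replication, showed the largest difference of the set. Ifi44 (chromosome 3, 151730922 to 151749910) had 125, 128 and 129.8 CPM in TGF_KD_CM libraries, against 1.43, 1.41 and 0.977 CPM in TGF_VEC_CM libraries, a log2 fold change of 6.65 ± 0.08 (SE). It had 0.254, 0.179 and 0.250 CPM in OE_CM libraries, against 0.272, 0.410 and 0.492 CPM in VEC_CM libraries. The OE_CM libraries lay below the VEC_CM libraries, but the difference did not pass (-0.77 ± 0.36 (SE), adjusted p = 0.063). It passed without VEC_CM replicate 1 (-0.98, adjusted p = 0.026), with upper-quartile factors and on log2(FPKM + 0.1). In OE_CM against VEC_CM, Ifi44 had enough reads to be tested only through the libraries with TGF-beta1, so no fall is read there. Every TGF_VEC_CM library was above every VEC_CM library (log2 fold change 1.69 ± 0.23 (SE), adjusted p = 3.5e-09). Ifi27, which encodes a small mitochondrial protein, rose in TGF_VEC_CM against VEC_CM by a log2 fold change of 1.42 and fell in OE_CM, with one of -0.51. Ifi35 rose slightly in TGF_VEC_CM (0.23 ± 0.10 (SE), adjusted p = 0.038), a call lost without VEC_CM replicate 1 or 3 or TGF_VEC_CM replicate 2 or 3, with adjusted p of 0.066 to 0.21.

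Ifi203 and Ifi204 belong to the mouse family of nuclear DNA-binding proteins with a pyrin domain, and both were well expressed in every group. Ifi204 was highest in TGF_KD_CM and lowest in TGF_VEC_CM, with 157, 178 and 172 CPM in TGF_KD_CM libraries, against 55.6, 63.3 and 60.8 CPM in TGF_VEC_CM libraries (log2 fold change 1.496 ± 0.04 (SE)). It had 83.1, 78.7 and 79.9 CPM in OE_CM libraries, against 105, 108 and 104 CPM in VEC_CM libraries, and the OE_CM libraries lay below the VEC_CM libraries (-0.39 ± 0.04 (SE), adjusted p = 3.4e-11). Its fall in TGF_VEC_CM against VEC_CM was the largest among the antiviral genes that passed (-0.82 ± 0.04 (SE), adjusted p = 2.1e-21). Ifi203 had 52.6, 51.6 and 57.3 CPM in OE_CM libraries, against 93.7, 90.7 and 94.5 CPM in VEC_CM libraries (log2 fold change -0.79 ± 0.04 (SE), adjusted p = 4.0e-28). The TGF_VEC_CM libraries of Ifi203, at 80.3, 82.8 and 83.4 CPM, were also below the VEC_CM libraries (-0.18 ± 0.04 (SE), adjusted p = 2.2e-05), and the TGF_KD_CM libraries had 194, 202 and 189 CPM. Of the 50-base stretches of Ifi204, 20.02% also occur in other genes, most of them in Ifi211, so part of its reads may be shared. Of the 5 genes named IFI, 4 fell in OE_CM (25.7% over all genes). Ifi35 was among them (-0.28 ± 0.11 (SE), adjusted p = 0.02), a call lost without VEC_CM replicate 2 (-0.18, adjusted p = 0.20) or without OE_CM replicate 2 (-0.16, adjusted p = 0.24).

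PARP9, PARP10, PARP12 and PARP14 attach or bind ADP-ribose, and DTX3L is the ubiquitin ligase that pairs with PARP9. Their log2 fold changes between TGF_KD_CM and TGF_VEC_CM were close together, between 1.91 (Dtx3l) and 3.02 (Parp14). Dtx3l was the second gene that rose in OE_CM, with 15.9, 16.1 and 18.2 CPM in OE_CM libraries, against 11.7, 13.1 and 13.8 CPM in VEC_CM libraries (log2 fold change 0.37 ± 0.08 (SE), adjusted p = 2.7e-05). The groups did not overlap. Dtx3l and Parp9 overlap by 558 bases on chromosome 16, and without the strand setting of the counting their reads cannot be told apart there. Parp9 did not pass in OE_CM (0.08 ± 0.08 (SE), adjusted p = 0.4) and fell in TGF_VEC_CM, with 9.86, 10.7 and 8.601 CPM in TGF_VEC_CM libraries, against 11.9, 13.7 and 12.1 CPM in VEC_CM libraries (-0.37 ± 0.08 (SE), adjusted p = 1.5e-04). Parp10, Parp12 and Parp14 fell in OE_CM, with log2 fold changes of -0.60, -0.34 and -0.64. The call of Parp12 was lost without VEC_CM replicate 2 (-0.25, adjusted p = 0.11) or without OE_CM replicate 3 (-0.28, adjusted p = 0.067).

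PML, SP100 and DAXX form nuclear bodies that silence incoming viral DNA, and TRIM21, TRIM30A and TRIM34A are members of a family of ubiquitin ligases, TRIM21 being a receptor for antibody-coated particles. Sp100 had 2.57, 2.18 and 2.66 CPM in OE_CM libraries, against 5.74, 4.59 and 4.57 CPM in VEC_CM libraries (log2 fold change -1.01 ± 0.12 (SE), adjusted p = 8.6e-11). The OE_CM libraries were all below the VEC_CM libraries. Sp100 had 58.2, 60.6 and 59.4 CPM in TGF_KD_CM libraries, against 7.81, 9.09 and 8.87 CPM in TGF_VEC_CM libraries, and its rise in TGF_VEC_CM against VEC_CM passed (0.79 ± 0.10 (SE), adjusted p = 8.7e-11). Pml fell in OE_CM (-0.55), as did Trim21 (-0.86) and Trim30a (-0.69). Thus 4 of the 6 genes fell and none rose, against 25.7% and 28.4% over all genes.

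Daxx showed the smallest difference of these genes between the TGF-beta1 groups. It had 33.8, 36.8 and 34.9 CPM in TGF_KD_CM libraries, against 32.4, 29.2 and 32.9 CPM in TGF_VEC_CM libraries, a log2 fold change of 0.16 ± 0.06 (SE). It had 23.1, 22.4 and 25.03 CPM in OE_CM libraries, against 23.9, 22.9 and 24.3 CPM in VEC_CM libraries, groups that overlapped (-0.01 ± 0.06 (SE), adjusted p = 0.89), and rose in TGF_VEC_CM against VEC_CM (0.41 ± 0.06 (SE), adjusted p = 2.5e-08). Trim30a had a log2 fold change of 3.13 between TGF_KD_CM and TGF_VEC_CM, and Trim34a, 39.8% of whose 50-base stretches also occur in Trim34b, had one of 3.43. Trim34a also rose in TGF_VEC_CM (0.81 ± 0.34 (SE), adjusted p = 0.037), a call lost without VEC_CM replicate 1 or 3 or TGF_VEC_CM replicate 2, with adjusted p of 0.055 to 0.18. Sp100, Daxx and Trim34a were the 3 of the 6 genes that rose in TGF_VEC_CM (28.9% over all genes).

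Schlafen genes were first described in the mouse as restraining the growth of T cells, and the 4 measured lie in 1 cluster on chromosome 11. Slfn5 had 41.1, 41.4 and 40.1 CPM in TGF_KD_CM libraries, against 15.2, 15.4 and 15.9 CPM in TGF_VEC_CM libraries, a log2 fold change of 1.40 ± 0.08 (SE). It had 4.82, 3.11 and 2.91 CPM in OE_CM libraries, against 5.47, 5.32 and 5.17 CPM in VEC_CM libraries, and so fell in OE_CM (-0.55 ± 0.12 (SE), adjusted p = 7.5e-05). The TGF_VEC_CM libraries lay far above the VEC_CM libraries (log2 fold change 1.54 ± 0.09 (SE), adjusted p = 3.3e-22). Slfn9 had 165, 177 and 168 CPM in TGF_VEC_CM libraries, against 198, 205 and 204 CPM in VEC_CM libraries. It fell slightly in TGF_VEC_CM (-0.25 ± 0.03 (SE), adjusted p = 3.5e-11) and in OE_CM (-0.12 ± 0.03 (SE), adjusted p = 4.2e-04), and it had 273, 286 and 269 CPM in TGF_KD_CM. Slfn2 rose in TGF_VEC_CM (0.94); in OE_CM it did not pass (0.12 ± 0.10 (SE), adjusted p = 0.35) unless VEC_CM replicate 1 was left out (0.27, adjusted p = 0.021). Slfn8 passed neither tested comparison.

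Of the close relatives Apol9a and Apol9b, which encode apolipoproteins L, Apol9a passed in OE_CM and Apol9b did not, and the difference between them was not tested. Apol9a (chromosome 15, 77403789 to 77411080) had 0.564, 0.688 and 0.688 CPM in OE_CM libraries, against 6.53, 5.43 and 5.14 CPM in VEC_CM libraries, which is 8.81-fold lower in OE_CM (log2 fold change -3.14 ± 0.15 (SE), adjusted p = 1.6e-28), the largest fall of the set. Apol9b (chromosome 15, 77729047 to 77736382) had 1.41, 1.76 and 1.66 CPM in OE_CM libraries, against 1.06, 1.53 and 1.75 CPM in VEC_CM libraries, groups that overlapped (0.15 ± 0.17 (SE), adjusted p = 0.48). In the TGF-beta1 groups the pair was much more alike. Apol9a had 141, 143 and 145 CPM in TGF_KD_CM libraries, against 19.3, 19.96 and 18.9 CPM in TGF_VEC_CM libraries, and Apol9b had 138, 139 and 143 CPM in TGF_KD_CM libraries, against 11.5, 13.9 and 12.9 CPM in TGF_VEC_CM libraries. Against VEC_CM both rose in TGF_VEC_CM, Apol9b by 8.81-fold (3.14 ± 0.11 (SE), adjusted p = 2.7e-35) and Apol9a by 3.40-fold (1.77 ± 0.07 (SE), adjusted p = 1.7e-31).

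The 2 genes share promoter letters, as printed above, and 52.3% of the 50-base stretches of Apol9b occur in Apol9a, against 16.5% of those of Apol9a in Apol9b. How the counting treated reads that fit both is not given in the sources used here, so the division of reads between them is uncertain. Apol6, a more distant relative, had 13.6, 13.5 and 13.9 CPM in OE_CM libraries, against 24.5, 28.0 and 26.1 CPM in VEC_CM libraries (log2 fold change -0.94 ± 0.07 (SE), adjusted p = 5.6e-20). It also fell in TGF_VEC_CM, with 17.3, 20.01 and 19.5 CPM in TGF_VEC_CM libraries, against 24.5, 28.0 and 26.1 CPM in VEC_CM libraries (-0.47 ± 0.06 (SE), adjusted p = 1.9e-09), and had 53.8, 55.7 and 55.3 CPM in TGF_KD_CM.

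The remaining genes have varied roles. XAF1 promotes apoptosis. Xaf1 had 3.20, 3.98 and 3.20 CPM in TGF_VEC_CM libraries, against 1.31, 0.956 and 1.18 CPM in VEC_CM libraries (log2 fold change 1.59 ± 0.15 (SE), adjusted p = 3.5e-14), with no overlap. In TGF_KD_CM it had 75.6, 86.7 and 80.7 CPM, a log2 fold change of 4.55 ± 0.08 (SE) over TGF_VEC_CM. Its fall in OE_CM (-0.70 ± 0.22 (SE), adjusted p = 0.0061) was lost without OE_CM replicate 1 (-0.50, adjusted p = 0.08). Phf11d and Rtp4 also differed strongly between TGF_KD_CM and TGF_VEC_CM, with log2 fold changes of 4.34 and 3.57. Both fell in OE_CM (-0.85 and -0.37), the call of Rtp4 being lost without VEC_CM replicate 2 (-0.18, adjusted p = 0.33) or OE_CM replicate 1 (-0.36, adjusted p = 0.055) or 3 (-0.35, adjusted p = 0.052).

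Shisa5, a gene linked to apoptosis, had 72.4, 75.3 and 71.6 CPM in TGF_VEC_CM libraries, against 79.2, 76.0 and 81.9 CPM in VEC_CM libraries (log2 fold change -0.11 ± 0.04 (SE), adjusted p = 0.0083). This small fall was lost without VEC_CM replicate 3 (-0.07, adjusted p = 0.14) or without TGF_VEC_CM replicate 1 (-0.09, adjusted p = 0.058) or 3 (-0.08, adjusted p = 0.087). Epsti1 was low throughout, with 0.325, 0.434 and 0.268 CPM in TGF_KD_CM libraries, against 0.281, 0.298 and 0.298 CPM in TGF_VEC_CM libraries, and 0.536, 0.269 and 0.563 CPM in OE_CM libraries, against 0.408, 0.710 and 0.438 CPM in VEC_CM libraries. Its libraries overlapped between TGF_KD_CM and TGF_VEC_CM and between OE_CM and VEC_CM, and no tested comparison passed. Tor3a averaged 139 ± 2.25 CPM in TGF_KD_CM, 59.3 ± 2.01 CPM in TGF_VEC_CM, 44.1 ± 0.774 CPM in OE_CM and 55.5 ± 1.76 CPM in VEC_CM (SD, n = 3 each). It fell in OE_CM (-0.33 ± 0.04 (SE), adjusted p = 3.8e-10), and its slight rise in TGF_VEC_CM (0.10 ± 0.04 (SE), adjusted p = 0.037) was lost without VEC_CM replicate 2 (0.07, adjusted p = 0.19) or TGF_VEC_CM replicate 1 (0.08, adjusted p = 0.12).

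Genes with an ISRE core in their window were set beside those without. The 14 with a match had a median log2 fold change of 3.0 between TGF_KD_CM and TGF_VEC_CM, against 1.82 for the 23 tested genes with a window and no match. The range of the matched genes, 0.70 to 6.05, lay inside that of the others, 0.16 to 6.65. That contrast is taken to have chosen the genes, so nothing is read from these values. Ifit3 and Ifit3b, and Apol9a and Apol9b, count separately here, although the printed stretches of each pair are identical. Without the genes tested only through libraries of other groups, the medians between OE_CM and VEC_CM were -0.58 with a match and -0.42 with none. With a match 8 of 12 fell and none rose, and with none 14 of 22 fell and 2 rose. Over all genes 25.7% fell and 28.4% rose. The difference between genes with and without a match was not tested. Between TGF_VEC_CM and VEC_CM the medians were -0.07 and 0.22. The largest and the smallest difference between the TGF-beta1 groups, those of Ifi44 and Daxx, both belong to genes with no match.

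Upstream of these genes, the interferon transcripts that were found amounted to a few reads per library at most. Of 21 interferon genes looked up, 5 were found in the table and none was tested. Their summed level was 0 to 0.0268 CPM in TGF_KD_CM, 0.0541 to 0.136 CPM in TGF_VEC_CM, 0.0299 to 0.113 CPM in OE_CM and 0 to 0.0547 CPM in VEC_CM. Interferon in the adipocytes or their medium was not analysed here. Among 17 genes of the interferon receptor and its signalling, 9 fell and 3 rose in OE_CM against VEC_CM (25.7% and 28.4% over all genes), and 7 fell and 3 rose in TGF_VEC_CM against VEC_CM (29.4% and 28.9% over all genes). In TGF_KD_CM over TGF_VEC_CM, as a description, 10 of the 17 log2 fold changes were positive and 7 negative, with a median of 0.23.

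Irf7 and Irf9, genes of transcription factors that act on the ISRE, are named from these 17 after their values were seen, and both were highest in TGF_KD_CM. Irf7, a factor that amplifies the response, averaged 105 ± 5.49 CPM in TGF_KD_CM, 4.84 ± 0.318 CPM in TGF_VEC_CM, 2.22 ± 1.07 CPM in OE_CM and 3.60 ± 0.472 CPM in VEC_CM (SD, n = 3 each). Irf9 averaged 77.2 ± 1.21 CPM in TGF_KD_CM, 19.1 ± 1.04 CPM in TGF_VEC_CM, 7.36 ± 0.313 CPM in OE_CM and 8.74 ± 0.751 CPM in VEC_CM. It rose in TGF_VEC_CM against VEC_CM (1.13 ± 0.07 (SE), adjusted p = 5.5e-22) and fell in OE_CM (-0.25 ± 0.08 (SE), adjusted p = 0.009).

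**Figure D5:**
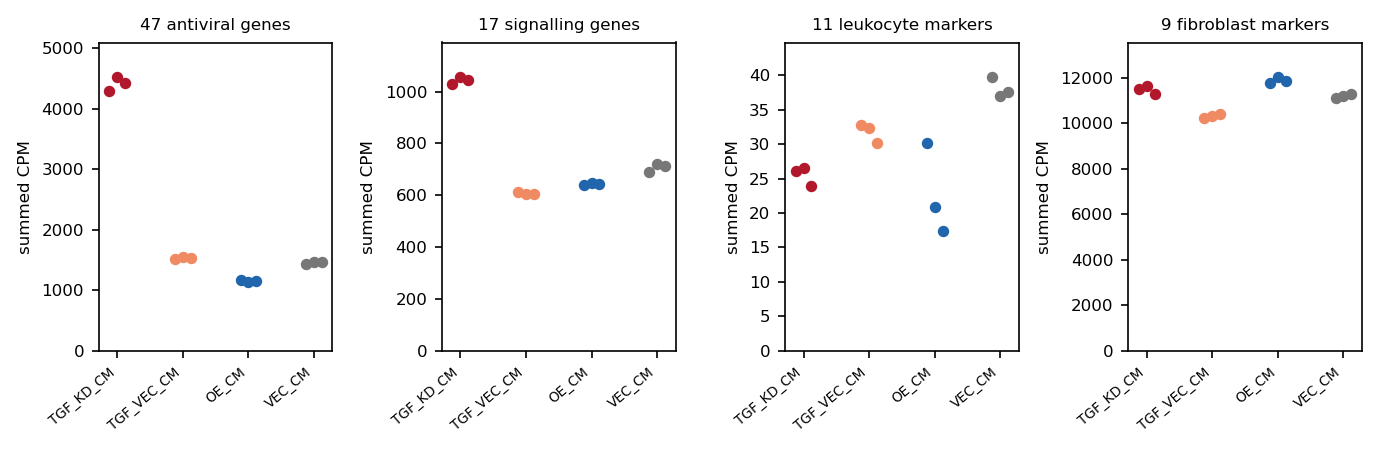
Summed CPM per library of 47 antiviral genes, 17 interferon signalling genes, 11 leukocyte markers and 9 fibroblast markers, each on an axis that starts at 0. The antiviral sums are 4300.3 to 4532 CPM in TGF_KD_CM and 1139 to 1163 CPM in OE_CM, while the leukocyte sums are highest in VEC_CM, at 37.1 to 39.8 CPM.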

How the data were processed

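Per the labels, cells were grown with 10% serum, and 1.3 µg of total RNA went into libraries made with a SMARTER mRNA kit. The authors deposited whole-number read counts per gene, with FPKM beside them. Per the submitters' processing notes the build was GRCm38 (mm10); for the aligner, counter, annotation and strand setting, nothing is stated: not given in the sources used here. The deposited FPKM equalled counts over column total and 1 length per gene, within 0.01%.

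Counts were tested in edgeR 4.0.16 (R 4.3.3): filterByExpr (14400 of 24619 genes kept, at least 99.9% of reads), TMM factors, a mean per group over all 12 libraries, robust quasi-likelihood tests, two-sided, Benjamini-Hochberg adjustment over all genes, threshold 0.05. The standard error is the log2 fold change over the square root of F. CPM values carry TMM factors. Alternatives used DESeq2 1.42.0 and limma 3.58.1, other scalings and filters, a replicate block, and each library left out. Scripts were tested on simulated data. Replicates differed by more than sampling noise (chi-square 2.93 to 4.29 per gene). The 3-read floor covers counting error only.

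Members and lists were chosen with earlier results of these data known. Values in every library are printed for the largest and smallest differences: in TGF_KD_CM over TGF_VEC_CM the 5 largest and 5 smallest plus Isg15, Usp18, Rsad2, Bst2 and Ifitm3, and in the tested comparisons up to 6 called genes each way. Promoter letters come from RefSeq (GRCm38.p6), shared 50-base stretches from GENCODE M21 transcripts, and 47 of 54 promoter windows ran into a transcript of their gene as given, 0 when reverse-complemented. No per-sample column was left out.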

Additional observations from a re-analysis of the deposited data

How the results depend on the processing

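No call of an antiviral gene in the 2 tested comparisons turned direction in the 21 alternatives. Of 31 calls between OE_CM and VEC_CM, 25 held in all 21 alternatives, and of 28 between TGF_VEC_CM and VEC_CM, 21 held; the others, by gene, are Bst2, Ifi35, Isg15, Parp12, Rtp4 and Xaf1 in OE_CM, and Ifi35, Ifitm3, Samhd1, Shisa5, Tor3a, Trim34a and Ube2l6 in TGF_VEC_CM. At least 1 alternative added Ddx60, Ifi44, Ifit3, Ifit3b, Rsad2, Shisa5, Slfn2, Usp18 or Znfx1 in OE_CM, and Ifit1, Parp14, Pml or Rsad2 in TGF_VEC_CM. In OE_CM, Ddx60, Ifi44 and Ifit3b had enough reads only through the libraries with TGF-beta1. Leaving out 1 library gave 25 to 32 lower and 2 to 3 higher in OE_CM, 17 to 20 higher and 6 to 10 lower in TGF_VEC_CM, and 35 genes at least 2-fold higher in TGF_KD_CM each time. The median log2 fold change over all antiviral genes tested then lay between -0.54 and -0.42 in OE_CM, 0.05 and 0.08 in TGF_VEC_CM, and 2.03 and 2.08 in TGF_KD_CM over TGF_VEC_CM. Over all 46 the reported fit gave -0.53 in OE_CM and 0.07 in TGF_VEC_CM. These medians and those of the next paragraph keep the genes tested only through other libraries. The medians of -0.51 in OE_CM and 0.09 in TGF_VEC_CM given earlier leave those genes out.

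The OE_CM median was -0.61 with upper-quartile factors and -0.26 on log2(FPKM + 1), a scale that shrinks low genes. The TGF_VEC_CM median was 0.032 with no filter, 0.11 at 1 CPM or more, and 0.11 on log2(FPKM + 0.1). The TGF_KD_CM median was 1.53 on log2(FPKM + 1) and 1.97 on log2(FPKM + 0.1). Over all genes, OE_CM calls were 2796 higher and 4538 lower on log2(FPKM + 1), and 2824 higher and 4664 lower on log2(FPKM + 0.1). Without a filter, and by DESeq2, Cmpk2 was called lower in TGF_VEC_CM than in VEC_CM, on 4 reads in TGF_VEC_CM and 22 in VEC_CM.

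The replicate block gave 2 higher and 28 lower in OE_CM, losing Isg15, and 20 higher and 8 lower in TGF_VEC_CM. Whether the numbers pair the libraries is not settled. No pair passed the 0.1 limit (18 pairs, r between -0.02 and 0.07), yet each of 12 libraries correlated best with its own number. The reported fit has no term for the number. Depth limits Ifit1, Ifit3b, Ddx60 and Cmpk2, which had 3 reads or fewer in at least 1 library, and Usp18, Ifi44 and Trim34a, which had as few as 6.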

Other observations

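Other interferon-induced genes outside the list, chosen with earlier results known, were set beside it. Of 37 tested, 18 fell and 5 rose in OE_CM against VEC_CM (25.7% and 28.4% over all genes), and 18 rose and 8 fell in TGF_VEC_CM against VEC_CM (28.9% and 29.4% over all genes). The 3 genes that follow were chosen after their values were seen. Zbp1, a sensor of Z-form nucleic acid, averaged 214 ± 13.3 CPM in TGF_KD_CM, 9.68 ± 1.18 CPM in TGF_VEC_CM, 13.4 ± 1.72 CPM in OE_CM and 1.84 ± 0.533 CPM in VEC_CM (SD, n = 3 each). Zbp1 had the largest rise of the 37 in OE_CM against VEC_CM (2.86 ± 0.19 (SE), adjusted p = 2.3e-07). Lgals9, a galectin, averaged 13.7 ± 0.717 CPM in OE_CM and 41.7 ± 3.07 CPM in VEC_CM and fell (-1.61 ± 0.06 (SE), adjusted p = 3.6e-31). Oas3, which makes the messenger that activates RNase L, fell in OE_CM (-1.70 ± 0.16 (SE), adjusted p = 1.4e-14) and rose in TGF_VEC_CM (1.48 ± 0.10 (SE), adjusted p = 7.0e-21), each against VEC_CM.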
